A study of Mus musculus and Homo sapiens with 42 samples.

Results

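The genes described are 9 subunits of Polycomb repressive complex 1 (PRC1): Cbx2, Cbx6, Cbx7, Cbx8, Ring1, Rnf2, Bmi1, Pcgf5 and Yaf2. They were taken by name from the PRC1 genes listed for this series. The rule used no measured value, but earlier results of these data were known. All 9 were among the 19467 genes listed in each of the 4 mouse count tables. In the GENCODE vM1 annotation of mm9, Cbx2 (chromosome 11, 118884276 to 118892584) and Cbx8 (chromosome 11, 118897619 to 118902283) lie next to each other on opposite strands. Cbx6 (79654326 to 79665118), Cbx7 (79746237 to 79801549) and Yaf2 (93114709 to 93167366) all lie on the minus strand of chromosome 15. Ring1 lies on chromosome 17 (34157737 to 34161625), Rnf2 on chromosome 1 (153316536 to 153347953), Bmi1 on chromosome 2 (18598645 to 18608256) and Pcgf5 on chromosome 19 (36453557 to 36530682).

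PRC1 attaches ubiquitin to histone H2A through a RING1A (Ring1) or RING1B (Rnf2) catalytic subunit paired with a PCGF protein. In canonical complexes a CBX protein binds H3K27me3, the mark that PRC2 writes, and each complex holds only 1 CBX paralog, so cells can exchange one paralog for another as they differentiate. In variant complexes RYBP or YAF2 takes the place of the CBX protein.

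RNA was sequenced from 30 mouse libraries in 11 groups and 5 sources to ask what loss of the chromatin remodeler gene Chd9 does to expression. Liver and brain were taken at embryonic day 15 (E15), with 2 Chd9-/- and 2 Chd9+/+ libraries per tissue. Mouse embryonic fibroblasts (MEFs) came from day 13.5 embryos and were sampled at early passage, with 4 Chd9-/- and 3 Chd9+/+ lines. Embryonic stem cells (ESCs), 3 lines per genotype, were grown in N2B27 medium with 2i and LIF, a medium that holds them in the naive state. The 9 lymphomas, 3 each of Chd9+/+, Chd9+/- and Chd9-/-, were enlarged lymph nodes of moribund mice, all of which carried the EμMyc transgene, a Myc gene driven by the immunoglobulin heavy chain enhancer in B lineage cells. The Chd9-/- allele lacks all coding exons of Chd9 in the germline after recombination between loxP sites by a Cre driven by the β-actin promoter, and the mice were on a mixed FVB and 129P2 background.

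The libraries held 33039199 to 45422029 counts in the E15 tissues, 28861669 to 37169470 in ESCs, 26064981 to 43629142 in MEFs and 11729052 to 15820000 in lymphomas. Values are CPM, read counts brought to a common library size by TMM scaling within each table. Chd9, the targeted gene, held 9.23 to 36.9 CPM in the Chd9-/- libraries, 28.1 to 44.8 in the Chd9+/- tumours and 47.8 to 200.8 in the Chd9+/+ libraries, and within each source no Chd9-/- library reached a Chd9+/+ library. The paper reports that the deleted allele still gives a short spliced mRNA from the exons left in place. Which exons the Chd9 reads of the Chd9-/- libraries came from was not tested here. The tissue labels were met by their defining markers. The summed ESC markers (Pou5f1, Nanog, Zfp42, Esrrb, Sox2) held 2993 to 3356 CPM in ESCs and at most 58.3 elsewhere, hepatocyte markers at least 167472 CPM in liver and at most 652.5 in brain, and B cell markers 1455 to 2810 CPM in the lymphomas. T cell markers held 6.72 to 116.6 CPM and myeloid markers 484.1 to 1198 CPM in the same nodes. Neural markers held 2956 to 3167 CPM in brain and at most 340.6 elsewhere. Fibroblast markers held 14053 to 16406 CPM in MEFs and at most 1282 elsewhere. The E15 livers also held erythroid markers (20123 to 27992 CPM) and myeloid markers (984.5 to 1335 CPM), against at most 431.8 and 38.1 CPM in brain. Summed Y-linked genes held 166.1 to 236.3 CPM in the E15 Chd9+/+ libraries and 0.0873 to 0.138 CPM in the E15 Chd9-/- libraries, and the reverse in ESCs (203.9 to 278.4 CPM in Chd9-/-, at most 0.293 in Chd9+/+). In these sources genotype and sex-chromosome content cannot be told apart. In lymphomas the same sum was 0.0764 to 0.127 CPM in the Chd9-/- tumours, 0.0844 to 229.3 in Chd9+/- and 0 to 272.2 in Chd9+/+. Genotype and sex-chromosome content therefore partly coincided there too.

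Of the 9 genes Cbx7 differed most between sources. Cbx7, which encodes the CBX subunit best known from pluripotent cells, held 215.7, 206.1 and 252.9 CPM in the Chd9+/+ ESCs and 254.9, 296.0 and 241.5 CPM in the Chd9-/- ESCs. The 9 lymphomas held 11.5 to 35.9 CPM (median 22.7), the 4 brain libraries 8.33 to 9.69, the 7 MEF lines 7.05 to 9.56 (median 8.68) and the 4 liver libraries 5.62 to 8.73. The ESC mean of 244.5 ± 32.1 CPM (SD, n = 6) was 38.1-fold the liver mean of 6.41 ± 1.55 (SD, n = 4). ESCs overlapped no other source and lymphomas overlapped none either, while brain, MEFs and liver overlapped with their neighbours in this order. The tables were normalized separately and aligned to mm10 (E15, lymphoma) or mm9 (ESC, MEF), so levels across sources are set side by side with no test.

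**Figure D1:**
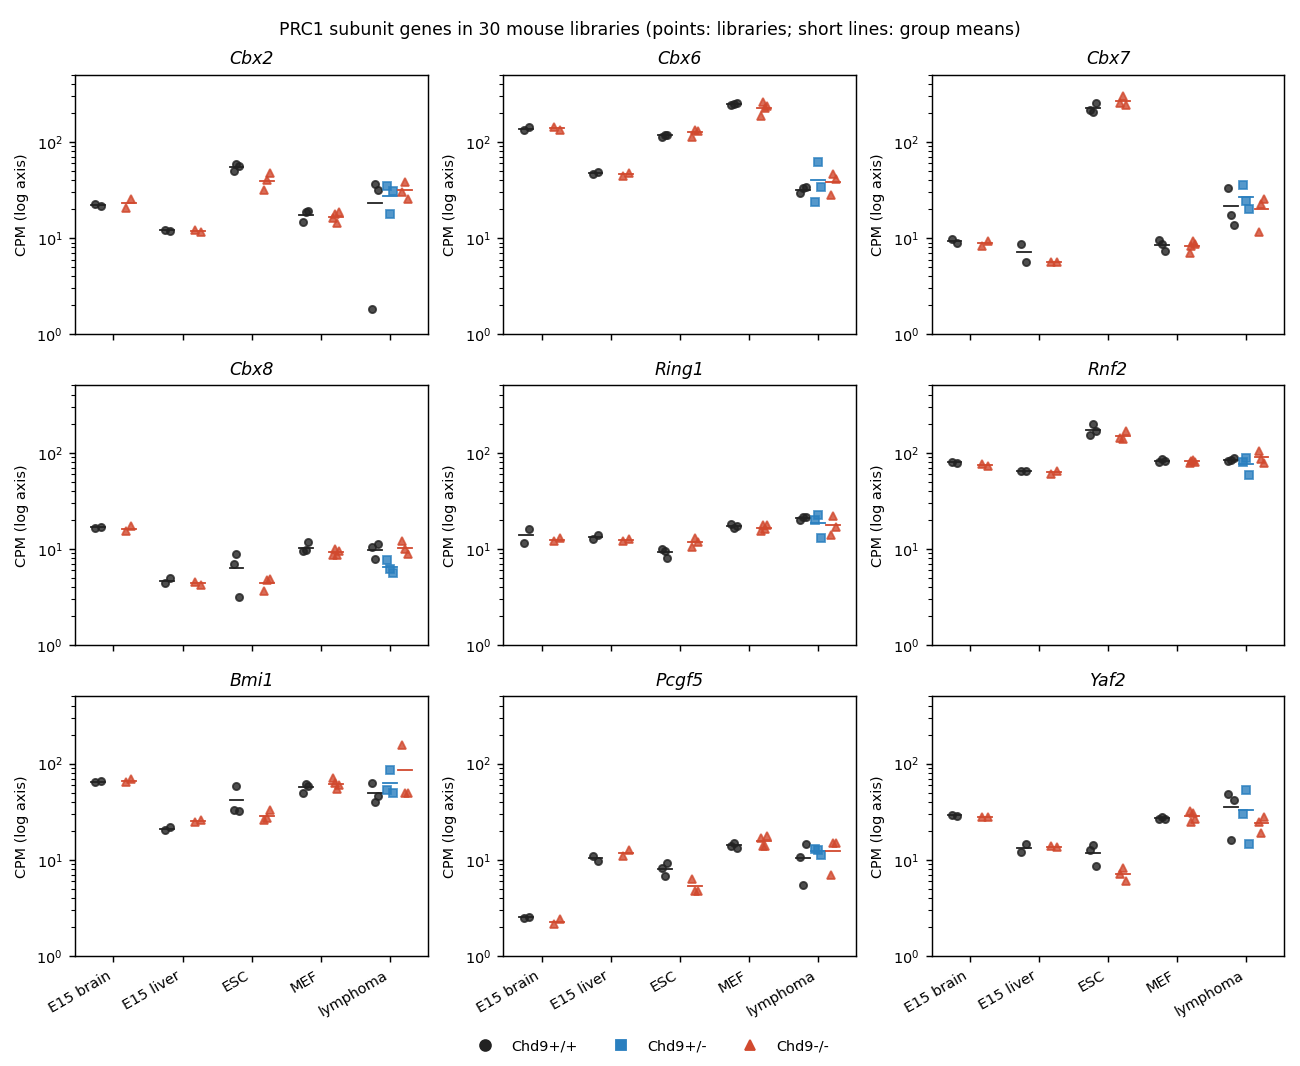
CPM on a log axis of each of the 9 genes in the 30 mouse libraries by source, with 1 point per library, shape and colour for Chd9 genotype and short lines for group means. Cbx7 stands above 200 CPM in all 6 ESC lines and below 36 CPM in all other libraries, and 1 Chd9+/+ lymphoma stands apart at 1.82 CPM of Cbx2.

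Cbx2, the paralog whose protein compacts nucleosome arrays and whose loss is known for homeotic and gonadal defects, was also highest on average in ESCs. It held 31.5 to 58.3 CPM there (median 48.4) and 1.82 to 38.4 CPM in the lymphomas (median 30.8), and these ranges overlapped. Brain held 20.6 to 25.5 CPM, MEFs 14.4 to 19.0 (median 17.95) and liver 11.7 to 12.2, and these 3 did not overlap each other. The ESC mean was 3.94-fold the liver mean.

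Cbx6, a less studied CBX paralog, was highest in MEFs, where the 7 lines held 183.4 to 257.9 CPM (median 239.8). Brain (132.4 to 143.5 CPM) and ESCs (112.4 to 134.3, median 118.4) overlapped below that range. Liver (44.7 to 48.8 CPM) and lymphomas (23.5 to 62.1, median 33.6) overlapped at the bottom, and the ratio of the highest to the lowest source mean was 6.37. The annotation places 1175 of the 6290 exon bases of Cbx6 in exons of Npcd on the same strand, a gene listed in none of these tables, so reads of the 2 genes may not be separable there.

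Cbx8, which interacts with the leukemia fusion partners AF9 and ENL, was highest in brain at 15.4 to 17.3 CPM and overlapped no other source there. MEFs held 8.64 to 11.8 CPM (median 9.59), lymphomas 5.70 to 12.2 (median 8.78), ESCs 3.17 to 8.86 (median 4.84) and liver 4.28 to 4.95, each overlapping the next. Brain held 3.62-fold the liver mean. Its neighbour Cbx2 thus had its highest mean in ESCs, where Cbx8 had its second lowest.

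To compare paralogs with each other, CPM was divided by the length of the merged exons in kilobases, and each CBX gene was given as a percent of the sum over Cbx2, Cbx6, Cbx7 and Cbx8 in its library. This share does not depend on the scaling of a library. In ESCs Cbx7 took 66.8 ± 4.08% (SD, n = 6), Cbx6 20.02 ± 1.00%, Cbx2 11.6 ± 2.92% and Cbx8 1.56 ± 0.72%. Per length, ESCs held 64.5 ± 8.47 CPM per kilobase of Cbx7 against 19.2 ± 1.40 of Cbx6 (SD, n = 6). Cbx7 had the highest share in all 6 ESC lines.

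In the other non-tumour sources Cbx6 led instead. It took 80.7 ± 1.17% in MEFs (SD, n = 7), 64.2 ± 2.35% in brain and 56.4 ± 2.30% in liver (SD, n = 4 each), and had the highest share in each of these 15 libraries. Cbx7 took 4.83 ± 0.58% in MEFs, 7.02 ± 0.51% in brain and 12.8 ± 2.70% in liver. Cbx8 took its largest mean share in brain, 13.2 ± 0.62%, against 5.74 ± 0.47% in MEFs. With the Npcd bases left out of its length, the share of Cbx6 was 68.8% in brain, 61.4% in liver and 83.7% in MEFs. The counts of Cbx6 were left unchanged there, so this setting can only raise its share. It does not remove any Npcd reads that were counted as Cbx6.

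The lymphomas had no single leading paralog. Mean shares were 30.7 ± 12.7% for Cbx2, 29.1 ± 11.3% for Cbx7, 28.2 ± 7.47% for Cbx6 and 12.01 ± 4.01% for Cbx8 (SD, n = 9). These SDs were larger than the differences between the first 3 means. Cbx2 had the highest share in 5 of the 9 tumours, and Cbx6 had the highest mean share (32.5%) with the Npcd bases left out of its length. That setting kept the counts of Cbx6 and could only raise its share.

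**Figure D2:**
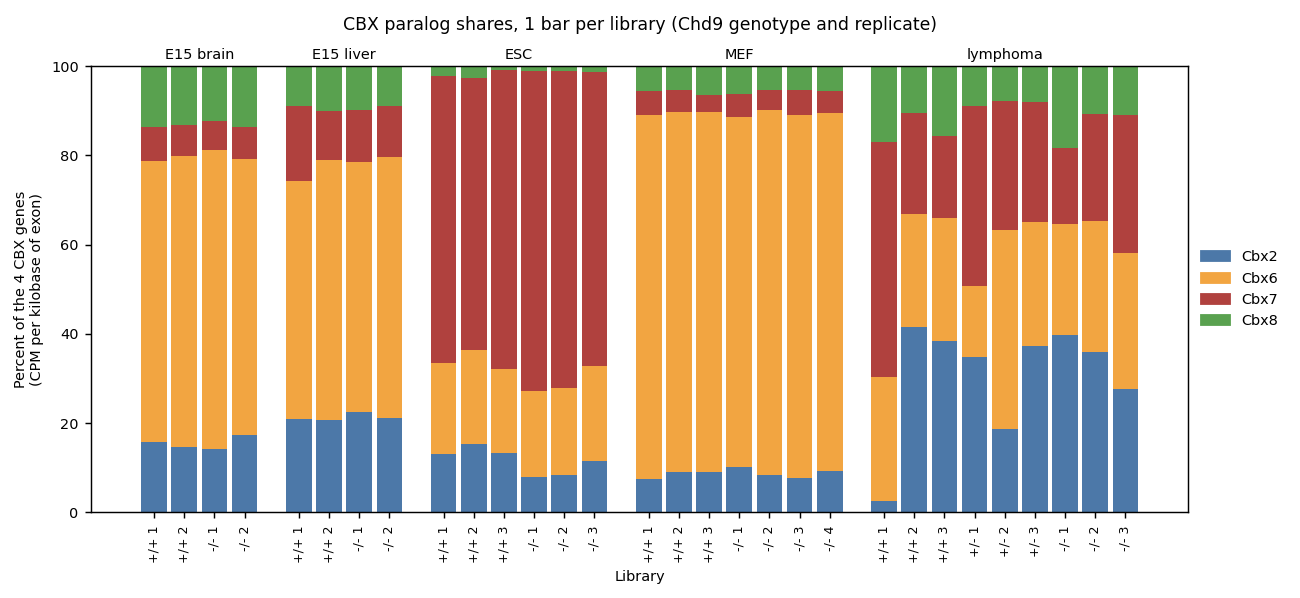
Percent of the summed CBX signal (CPM per kilobase of exon) taken by each of 4 CBX genes, with 1 stacked bar per library, labelled by Chd9 genotype and replicate. Cbx7 fills 60.9% to 71.8% of each ESC bar, Cbx6 78.4% to 81.8% of each MEF bar, and the lymphoma bars differ from tumour to tumour.

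The catalytic subunits showed a fixed order. Rnf2 (RING1B, the paralog whose loss is lethal in early embryos) held 138.0 to 197.1 CPM in ESCs (median 160.3), and no other source overlapped that range. Lymphomas held 59.2 to 103.4 CPM (median 83.8), MEFs 78.3 to 86.2 (median 82.5), brain 73.7 to 80.8 and liver 60.2 to 65.1. Ring1 (RING1A, whose loss mice survive) varied least of the 9 genes between sources, with a ratio of 1.81 between the highest mean, 19.1 ± 3.55 CPM in lymphomas (n = 9), and the lowest, 10.5 ± 1.75 CPM in ESCs (n = 6). Every source overlapped its neighbour for Ring1. Per length, Rnf2 took 82.3 ± 2.62% (lymphomas) to 94.1 ± 1.43% (ESCs) of the sum of both and exceeded Ring1 in all 30 libraries.

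Among the PCGF genes, Bmi1 (PCGF4), a canonical subunit known for repressing the Cdkn2a locus in stem cells, held 63.8 to 68.5 CPM in brain, 49.9 to 71.3 in MEFs (median 60.4), 40.4 to 157.6 in lymphomas (median 50.2) and 26.0 to 58.8 in ESCs (median 32.7). Liver held 20.3 to 25.9 CPM and overlapped no other source. Pcgf5, which belongs to variant complexes, was lowest in brain at 2.17 to 2.56 CPM, below every library of the other sources. It held 13.5 to 17.9 CPM in MEFs (median 14.1), 5.50 to 15.1 in lymphomas (median 12.7), 9.86 to 12.5 in liver and 4.74 to 9.27 in ESCs (median 6.59).

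Per length and as a percent of the 6 PCGF genes, Bmi1 took 24.3 ± 0.36% in brain, 15.4 ± 1.52% in liver, 8.77 ± 2.23% in ESCs, 23.0 ± 1.92% in MEFs and 30.2 ± 11.6% in lymphomas. Pcgf5 took 2.08 ± 0.13%, 16.9 ± 1.57%, 3.94 ± 1.12%, 13.4 ± 1.22% and 12.9 ± 4.00% in the same order (SD, n = 4, 4, 6, 7 and 9). Pcgf2, the other canonical PCGF gene, had the highest share in all 8 E15 libraries and in 4 of the 6 ESC lines, and Pcgf3 in 6 of the 7 MEF lines.

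Yaf2, which fills the RYBP position in variant complexes, held 14.5 to 53.8 CPM in lymphomas (median 28.1), 27.6 to 29.4 in brain, 24.8 to 32.6 in MEFs (median 26.9), 12.1 to 14.6 in liver and 6.12 to 14.3 in ESCs (median 8.41). Brain and MEFs overlapped each other and neither overlapped liver or ESCs. Per length Yaf2 took 8.10 ± 2.46% of the sum of Rybp and Yaf2 in ESCs, and Rybp led in all 6 lines. Its share was 42.0 ± 1.87% in liver, 45.0 ± 0.90% in brain, 51.5 ± 3.28% in MEFs and 64.6 ± 13.3% in lymphomas.

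Brain and liver stood in 1 table and could be tested against each other. In the Chd9+/+ embryos 6 of the 9 genes were higher in brain and 1 was lower at an adjusted p under 0.05 (edgeR's quasi-likelihood F-test, with Benjamini-Hochberg correction across the 18359 genes that entered). Over all genes tested 83.7% passed in either direction, 44.0% higher and 39.7% lower in brain, so a pass here is the rule for any gene. The median log2 fold change was 0.87 over the 9 genes and 0.10 over all genes tested. The library descriptions do not settle which brain and liver came from 1 embryo, and the libraries were compared as unpaired. These are bulk tissues, in which fewer cells of a type and less RNA per cell cannot be told apart.

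Cbx8 held 16.7 and 16.8 CPM in the Chd9+/+ brains and 4.47 and 4.95 in the livers, a log2 fold change of 1.83 (95% interval 1.58 to 2.09). Bmi1 held 63.9 and 65.5 CPM in brain and 20.3 and 21.8 in liver (1.62, 1.44 to 1.79), and Cbx6 132.4 and 141.2 in brain and 46.1 and 48.8 in liver (1.53, 1.34 to 1.71). These were folds of 3.56, 3.07 and 2.88, and both brain libraries stood above both liver libraries for each of these 3 genes.

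Yaf2 held 29.4 and 28.9 CPM in brain and 12.1 and 14.6 in liver, a log2 fold change of 1.13 (0.90 to 1.36). Cbx2 held 22.4 and 21.4 CPM in brain and 12.2 and 11.8 in liver (0.87, 0.60 to 1.13). Rnf2 had the smallest difference that passed, 80.8 and 77.6 CPM in brain against 65.1 and 64.0 in liver (0.30, 0.14 to 0.45). Pcgf5 alone was lower in brain, with 2.52 and 2.56 CPM there and 10.9 and 9.86 in liver, and its log2 fold change was -2.03 (-2.34 to -1.71).

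Cbx7 and Ring1 did not pass. Cbx7 held 9.69 and 8.86 CPM in brain and 8.73 and 5.62 in liver (log2 fold change 0.37, -0.08 to 0.81, adjusted p = 0.106 by edgeR), and the 2 livers lay far apart. Without Chd9+/+ liver replicate 1 the log2 fold change was 0.70 (adjusted p = 0.00386 by edgeR), and without Chd9+/+ liver replicate 2 it was 0.10 (adjusted p = 0.517 by edgeR). Over both genotypes it was 0.51 (adjusted p = 0.00738 by edgeR, where 88.6% of all genes passed). Ring1 held 11.7 and 16.2 CPM in brain and 12.6 and 14.1 in liver (0.07, -0.29 to 0.43, adjusted p = 0.690 by edgeR), and its ranges overlapped.

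**Figure D3:**
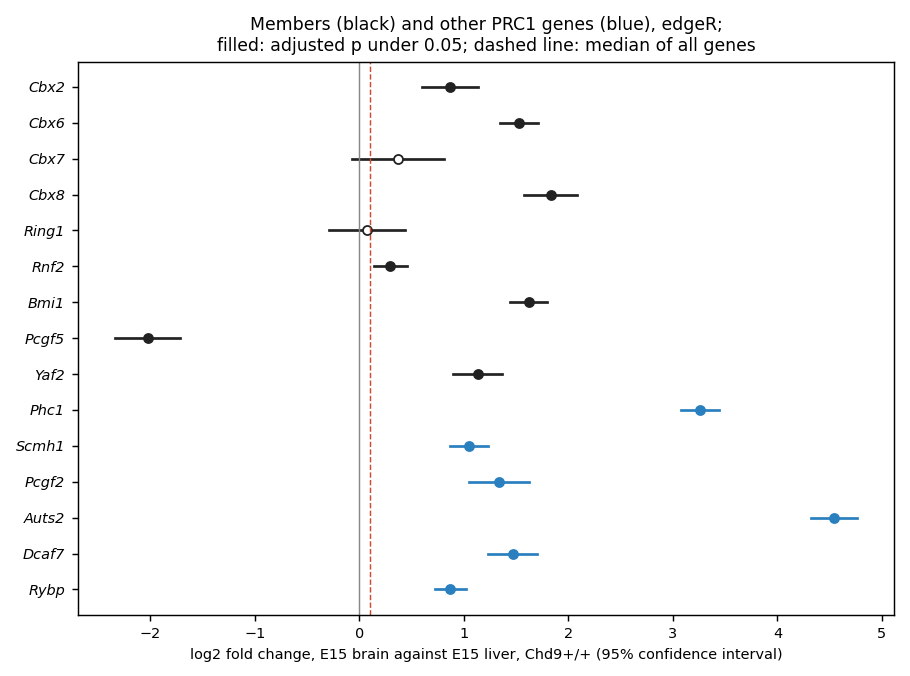
Log2 fold changes, E15 brain against liver in Chd9+/+ embryos, of the 9 genes (black) and 6 other PRC1 genes (blue), with 95% intervals by edgeR, filled points for an adjusted p under 0.05 and a dashed line at the median of all genes tested. Among the 9, the intervals of Cbx7 and Ring1 cross 0, that of Pcgf5 lies below -1.7, and those of the other 6 genes lie above 0.

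The CBX shares also differed between brain and liver over all 8 E15 libraries. Cbx6 took 7.79 points more of the CBX sum in brain (61.7% to 67.0% against 53.4% to 58.4%) and Cbx8 3.79 points more (12.3% to 13.7% against 8.87% to 10.06%). The other 2 had lower shares in brain than in liver. The difference was -5.75 points for Cbx7 (6.45% to 7.65% against 11.1% to 16.8%) and -5.82 points for Cbx2 (14.2% to 17.5% against 20.8% to 22.5%). The groups did not overlap for any of the 4 paralogs. Each gave p = 0.0286 in an exact two-sided permutation test of 4 against 4 libraries, the smallest p this design allows, and 0.0286 after Benjamini-Hochberg adjustment over the 4. The 4 shares sum to 100% and are not independent. Cbx2 therefore had a higher level and a lower share in brain than in liver.

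Other PRC1 genes were taken from fixed lists. Their calls stand beside 44.0% of all genes tested that were higher in brain and 39.7% that were lower. All 6 other canonical genes were higher in brain, led by Phc1, a polyhomeotic subunit that links complexes together (110.4 and 114.1 CPM in brain, 11.42 and 12.03 in liver, log2 fold change 3.26), with Scmh1 at 1.05 and Pcgf2 at 1.34. Of 15 other variant genes 7 were higher and 3 lower, with Auts2, a PCGF3/5 partner known from neurons, at 4.54, Dcaf7 at 1.46 and Rybp at 0.87. Of 7 genes of H2AK119 deubiquitination 4 were higher and 1 lower, with Asxl3 at 5.91, Foxk2 at 1.59 and Asxl2 at -0.88. List medians were 1.19, 0.33 and 0.19 in that order, beside 0.10 over all genes.

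Of 15 developmental genes known as Polycomb targets 11 could be tested, and 7 were higher and 3 lower in brain. The shares over all genes tested were 44.0% and 39.7%. The neural regulators Pax6 (33.4 to 34.4 CPM), Eomes (29.3 to 31.2 CPM) and Olig2 (17.5 to 18.9 CPM) were expressed in the Chd9+/+ brains and held at most 3 counts in either Chd9+/+ liver library. Gata4, Gata6 and Foxa2 went the other way. Gata4 held 0 counts in the Chd9+/+ brains and 27.1 to 30.5 CPM in the Chd9+/+ livers. Gata6 held 0.271 to 0.417 CPM in brain and 11.5 to 12.9 in liver, and Foxa2 0.792 to 1.17 and 21.5 to 22.5.

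Loss of Chd9 moved none of the 9 genes past an adjusted p of 0.05 in any source, by edgeR or by DESeq2. In E15 liver 0 of the 9 were called, beside 0.0322% of all genes tested (0.0636% by DESeq2), and 1 had an unadjusted p under 0.05 beside 2.81% of all genes (0 by DESeq2, beside 0.929%). In E15 brain 0 were called, beside 0.0523% (0.121% by DESeq2), and 0 had an unadjusted p under 0.05 by either tool, beside 3.42% by edgeR and 0.890% by DESeq2. In MEFs 0 were called, beside 0.0131% (0.00830% by DESeq2), and 0 had an unadjusted p under 0.05 by either tool, beside 1.04% by edgeR and 0.801% by DESeq2.

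In ESCs 0 of the 9 were called, beside 0.155% of all genes (4.40% by DESeq2, 0.0774% with the replicate number as a block), and 2 had an unadjusted p under 0.05 beside 11.9% of all genes (3 by DESeq2, beside 8.97%). In lymphomas 0 were called for Chd9-/- against Chd9+/+, beside 0.00744% (0.240% by DESeq2), with 0 at an unadjusted p under 0.05 by either tool, beside 3.87% by edgeR and 3.62% by DESeq2. For Chd9+/- against the same Chd9+/+ tumours 0 were called, beside 0% (0.0595% by DESeq2), with 0 at an unadjusted p under 0.05 beside 4.48% (1 by DESeq2, beside 3.97%). The genotype effect in brain against that in liver, an interaction in 1 fit, gave 0 calls beside 0% (0.0222% by DESeq2), with 0 at an unadjusted p under 0.05 by either tool, beside 3.51% by edgeR and 1.79% by DESeq2.

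**Figure D4:**
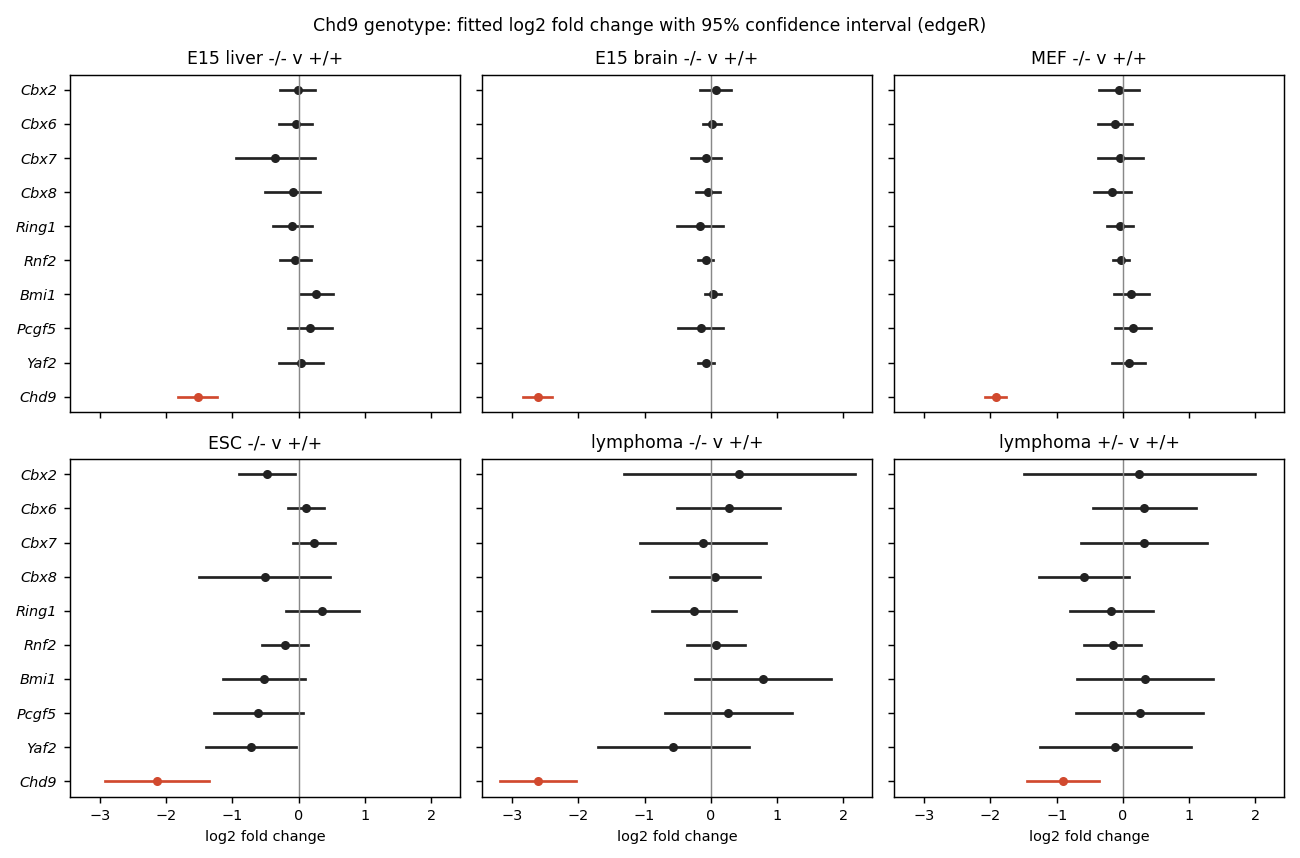
Log2 fold changes of the 9 genes (black) and of Chd9 (red) with 95% intervals (edgeR) in the 6 genotype comparisons, 1 panel each. Intervals of the 9 genes are within 0.60 of 0 in every E15 brain, MEF and E15 liver panel except for Cbx7 in liver (-0.94 to 0.24). They reach beyond 1 in ESCs and lymphomas.

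Chd9 itself was called by edgeR in brain (log2 fold change -2.62), MEFs (-1.92) and Chd9-/- lymphomas (-2.61). In liver (-1.53, adjusted p = 0.0779 by edgeR) and ESCs (-2.14, adjusted p = 0.0632 by edgeR) the deleted gene missed the threshold that it passed by DESeq2 (adjusted p of 2.94e-14 and 3.08e-06), so the edgeR test can miss a change of this size there. In Chd9+/- lymphomas Chd9 had a log2 fold change of -0.91 (-1.45 to -0.36) and was called by neither tool (adjusted p of 0.926 by edgeR and 0.318 by DESeq2).

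The median log2 fold change of the 9 genes was -0.04 in liver, -0.07 in brain and -0.04 in MEFs, beside 0.01, 0.00 and 0.00 over all genes tested. In MEFs the 9 log2 fold changes ran from -0.16 (Cbx8) to 0.15 (Pcgf5), and no interval passed 0.44 in size. The bound farthest from 0 was that of Cbx8, whose interval ran from -0.44 to 0.12, with 8.64 to 10.1 CPM in the 4 Chd9-/- lines and 9.46 to 11.8 in the 3 Chd9+/+ lines. Genotype nearly coincided with a letter in the MEF library descriptions, A for 3 Chd9-/- lines and B for the other 4 lines. With that letter as a term, in which only 1 Chd9-/- line is compared within a letter, Pcgf5 was at 0.34 (-0.04 to 0.71), 4 of the 9 genes had the other sign, and 0 were called. No member had groups without overlap in MEFs, beside 2.06% of all genes.

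In E15 brain the log2 fold changes ran from -0.16 (Ring1) to 0.07 (Cbx2). Rnf2, Pcgf5 and Yaf2 had lower values in both Chd9-/- brains than in both Chd9+/+ brains, which was true in either direction of 31.5% of all genes. Yaf2 held 27.6 and 28.1 CPM in Chd9-/- and 29.4 and 28.9 in Chd9+/+, a log2 fold change of -0.07 (-0.19 to 0.06).

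In E15 liver Bmi1 had the lowest p of the 9 (unadjusted p = 0.0415 by edgeR) and was the only member whose groups did not overlap, beside 28.5% of all genes. It held 24.9 and 25.9 CPM in the Chd9-/- livers and 20.3 and 21.8 in the Chd9+/+ livers. The log2 fold change was 0.27 (0.01 to 0.52), and the adjusted p was 1.00 by edgeR. The same gene held 63.8 and 68.5 CPM in the Chd9-/- brains and 63.9 and 65.5 in the Chd9+/+ brains, and the difference between the tissues in its genotype effect was -0.24 (-0.48 to 0.00, adjusted p = 1.00 by edgeR).

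In ESCs the member values spread more, and the median log2 fold change of the 9 genes was -0.47 beside -0.02 for all genes tested. Cbx2 held 31.5, 39.9 and 47.2 CPM in Chd9-/- and 49.6, 58.3 and 56.6 in Chd9+/+ (log2 fold change -0.47, -0.89 to -0.05, adjusted p = 0.361 by edgeR). Yaf2 held 7.23, 8.24 and 6.12 CPM in Chd9-/- and 12.6, 14.3 and 8.58 in Chd9+/+ (-0.72, -1.40 to -0.03, adjusted p = 0.390 by edgeR). Pcgf5 held 6.37, 4.74 and 4.79 CPM in Chd9-/- and 8.16, 6.80 and 9.27 in Chd9+/+ (-0.61, -1.28 to 0.07, adjusted p = 0.466 by edgeR).

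These 3 genes were lower in every Chd9-/- line than in every Chd9+/+ line, and Ring1 was higher (10.6, 13.0 and 11.9 against 10.0, 9.63 and 7.99 CPM, 0.36, -0.20 to 0.92). Such a lack of overlap was found for 18.5% of all genes in ESCs. Cbx7, the leading paralog there, had a log2 fold change of 0.23 (-0.09 to 0.55), and its share of the CBX sum was 69.5 ± 3.17% in Chd9-/- and 64.1 ± 3.04% in Chd9+/+ (SD, n = 3 each).

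Bmi1 in ESCs had 26.0, 27.6 and 33.0 CPM in Chd9-/- and 33.2, 58.8 and 32.5 in Chd9+/+ (-0.52, -1.14 to 0.09), so that its groups overlapped and 1 Chd9+/+ line stood high. Cbx8 held 3.68 to 4.86 CPM in Chd9-/- and 3.17 to 8.86 in Chd9+/+ (-0.51, -1.50 to 0.47). Rnf2 (-0.20, -0.55 to 0.14) and Cbx6 (0.11, -0.16 to 0.39) had intervals on both sides of 0.

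The lymphomas gave the widest intervals. The Chd9-/- and Chd9+/- comparisons share the 3 Chd9+/+ tumours, and their values are therefore given side by side only. Cbx2 had log2 fold changes of 0.43 (-1.31 to 2.17) in Chd9-/- and 0.25 (-1.49 to 1.99) in Chd9+/-, Bmi1 0.78 (-0.24 to 1.81) and 0.33 (-0.69 to 1.36), and Yaf2 -0.57 (-1.71 to 0.57) and -0.11 (-1.25 to 1.02). Each of these 6 intervals held a 2-fold change in at least 1 direction, so the 3 tumours per genotype could not tell such a change from none. Single tumours also set these values. Without Chd9-/- tumour 1 the Bmi1 difference in Chd9-/- was -0.01, and leaving out other tumours took it up to 1.08. Without Chd9+/+ tumour 1 the Cbx2 differences were -0.12 in Chd9-/- and -0.30 in Chd9+/-, and without Chd9+/+ tumour 2 they were 0.89 and 0.71. Yaf2 ran from -0.92 to -0.28 in Chd9-/- and from -0.67 to 0.24 in Chd9+/- over the tumours left out. Rnf2 was the most tightly measured, at 0.08 (-0.35 to 0.52) and -0.16 (-0.59 to 0.28). Cbx8 was lower in all 3 Chd9+/- tumours (7.68, 6.28 and 5.70 CPM) than in the Chd9+/+ tumours (10.4, 7.96 and 11.2 CPM), with a log2 fold change of -0.59 (-1.27 to 0.09), and 9.86% of all genes showed no overlap. No member did so in Chd9-/-, beside 7.46% of all genes.

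The extreme values came from single tumours. Cbx2 held 1.82 CPM (25 counts) in Chd9+/+ tumour 1, and the other 8 tumours held 17.6 to 38.4 CPM. The ratio of highest to lowest was 21.1 with that tumour and 2.18 without it. Its B cell markers (2078 CPM), T cell markers (24.6 CPM) and myeloid markers (665.6 CPM) were within the range of the other 8, and the same tumour held the second highest Cbx7 (33.3 CPM). Bmi1 held 157.6 CPM in Chd9-/- tumour 1 and 40.4 to 86.2 CPM in the others. That tumour had the lowest T cell (6.72 CPM), fibroblast (652.4 CPM) and neural (2.15 CPM) markers of the 9. It also had the highest myeloid (1198 CPM) and erythroid (336.4 CPM) markers. The part of these differences in the Bmi1 value was not tested. Yaf2 spread 3.71-fold, Cbx7 3.11-fold, Pcgf5 2.76-fold, Cbx6 2.64-fold and Cbx8 2.13-fold over the 9 tumours, and Rnf2 (1.75-fold) and Ring1 (1.71-fold) spread least.

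Pairs of CBX genes showed no relation that passed a test across the 9 tumours. For Cbx2 and Cbx7 Pearson's r of log2 CPM was -0.46 (exact permutation p = 0.270) and Spearman's rho -0.27 (exact permutation p = 0.493), and r was 0.11 without the 2 tumours farthest from the median of Cbx2. Over all 6 pairs of Cbx2, Cbx6, Cbx7 and Cbx8, r ran from -0.46 to 0.09, with adjusted p of at least 0.771 in exact permutation tests.

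The other PRC1 lists gave 0 calls in each of the 6 genotype comparisons by edgeR, beside 0% to 0.155% of all genes tested. Their gene nearest to a call was Scml2, an X-linked canonical subunit, in ESCs (log2 fold change -3.10, -4.10 to -2.11, adjusted p = 0.0511 by edgeR), where genotype and sex-chromosome content cannot be told apart. In ESCs 1 of 6 canonical, 3 of 15 variant and 0 of 7 deubiquitination genes had an unadjusted p under 0.05 by edgeR, beside 11.9% of all genes. DESeq2 called 4.40% of all genes in ESCs, and its results for these lists are not given here. The 0 calls therefore hold for edgeR alone.

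Across the 11 groups, the genes with the pattern most like that of Cbx2 were Atrx, Ktn1 and Alkbh6, whose log2 CPM, centred on its mean, differed from that of Cbx2 by a root mean square of 0.18, 0.19 and 0.19. Over the 16306 genes compared the median was 1.29. For Cbx7 they were Pla2g4f (0.26), Chrna9 (0.30) and Fam113b (0.47), beside a median of 2.09. Pla2g4f and Chrna9 reached at most 3.83 and 4.15 CPM in any group, against 81.2 CPM for Fam113b, so their patterns rest on few counts.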

How the data were processed

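RNA was sequenced on an Illumina HiSeq from Trizol-extracted total RNA made into TruSeq libraries. The authors aligned reads with TopHat 2.1.0 and bowtie 1.1.0, to mm10 for E15 tissues and lymphomas and to mm9 for ESCs and MEFs, and deposited raw counts of reads per Ensembl gene made with HTSeq-count 0.5.3. The annotation release and the use of strand are not given in the sources used here. The deposited tables held 0 columns from samples outside the sample list. Tables of human lines were not used here.

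Groups came from the sample titles. In the library descriptions the Chd9-/- livers carry the same pair of embryo numbers as the Chd9+/+ brains, and the Chd9-/- brains carry others, so which E15 libraries share an embryo is not known and equal replicate numbers in brain and liver do not mark 1 embryo. Chd9 levels matched the genotypes in the titles. Each comparison was fitted on the whole table in R 4.3.3 with edgeR 4.0.16 (TMM, filterByExpr, glmQLFTest, Benjamini-Hochberg over all genes tested), with calls made at an adjusted p under 0.05. All 9 members passed the filter in every comparison. The E15 tissues were fitted separately for genotype and in 1 fit with 4 groups for brain against liver, and the 9 lymphomas in 1 fit. The fits were tested on simulated data with the same fixed dispersion for each comparison. That run does not show what the fits can detect at the spread of ESCs or lymphomas. Lines 1 and 3 of both ESC genotypes share a number at the head of the library description, and lines 2 do not. In MEFs 3 of the 4 Chd9-/- lines carry the letter A and the fourth carries B with all 3 Chd9+/+ lines. What the numbers and letters stand for is not given in the sources used here, and both were fitted as a term. P-values measure only the spread between these libraries. Log2 CPM for patterns used a pseudocount of 0.1, and genes entered with a mean of at least 1 CPM in some group. Lengths are merged exons of GENCODE vM1. CBX shares were planned over a wider family, of which 1 gene is not reported here, and were taken over the 4 CBX members. Shares and correlations were tested in Python 3.11.15 with SciPy 1.17.1.

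Named genes were all 9 members with Chd9, the paralogs in their families, from each list its called genes up to the 3 with the smallest p, and the 3 nearest patterns of Cbx2 and Cbx7. Genes named as extreme or nearest to a call, and Gata4, Gata6 and Foxa2, were chosen after their values were seen. The members, lists and tests were chosen with earlier results of these data known.

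Alternatives were DESeq2 1.42.0, its size factors, other filters, a fold limit, replicate blocks, terms from the library labels, other lengths and families, and leaving out libraries. Same-numbered ESC lines deviated together (r = 0.468, 0.231 and 0.408, against -0.384 to 0.0221 for other numbers), so their numbers were taken as pairs in an alternative fit. In MEFs r reached 0.675 between lines of different numbers, so r values of this size do not by themselves show that lines are paired. With the replicate as a block 0 members were called. The ESC fold changes and intervals in the Results come from the fit without that block.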

Additional observations from a re-analysis of the deposited data

How the results depend on the processing

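The 0 calls among the members in the 7 genotype comparisons held under each alternative run, in 747 values, of which 50 had the other sign and 0 were called (lowest adjusted p 0.152, Yaf2 in ESCs with DESeq2). The biological coefficient of variation, estimated by edgeR in common for all genes, was 0.352 in ESCs and 0.463 in lymphomas. It was 0.0588 in E15 brain. This limits what ESCs and lymphomas can show. In brain against liver 7 to 8 members were called under the alternatives at an adjusted p alone, beside 58.1% (no filter) to 88.6% (both genotypes) of all genes, and 5 with a log2 fold limit of 1, beside 60.2%. The replicate block changed no member's call. With the replicate block the differences of CBX shares, brain against liver, were -5.82 (Cbx2), 7.79 (Cbx6), -5.75 (Cbx7) and 3.79 points (Cbx8), each with an exact permutation p of 0.125, the smallest that 4 pairs allow. Leaving out each library in turn gave -6.47 to -5.39 (Cbx2), 6.78 to 8.63 (Cbx6), -6.31 to -4.41 (Cbx7) and 3.60 to 4.08 points (Cbx8), where 4 against 3 cannot go below 0.0571. In liver, replicates of the same number deviated in opposite directions (r = -0.275), and crossed pairs, a block chosen after seeing the data, gave 78 higher and 89 lower calls over all genes against 1 and 4.

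Without division by length the Cbx6 share was 74.1% in brain, 67.1% in liver and 86.9% in MEFs, the Cbx7 share in ESCs was 58.3%, and Cbx6 led the lymphomas by mean (38.1%). With the length of Cbx6 free of Npcd, a choice made after seeing the data, Cbx6 took 68.8% in brain, 61.4% in liver and 83.7% in MEFs, and led the lymphomas by mean (32.5%). The counts of Cbx6 were not changed in that setting, which can only raise its share. Of 325 other shares under an alternative 55 moved by over 1 SD. Across lymphomas r of Cbx6 and Cbx7 was -0.000984 with DESeq2 size factors and -0.0237 when centred within genotype, and r of Cbx2 and Cbx6 was -0.0336 when centred. In ESCs the calls over all genes were 24 by edgeR, 724 by DESeq2, 154 without a filter, 14 with DESeq2 size factors, 12 with the replicate block, 8 with a mean of at least 10 counts and 5 with the number in the library description as a term. They were 174 without Chd9+/+ replicate 3 and 3 to 7 without any other 1 line.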
